A study of Mus musculus with 4 samples.

Results

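Genes that mark or maintain hair follicle stem cells were examined for DNA methylation in hair matrix keratinocytes with and without the dioxygenases Tet2 and Tet3. The set was 9 genes chosen by name, Lgr5, Lgr6, Lhx2, Nfatc1, Cd34, Hopx, Lrig1, Sox9 and Foxc1, of 21883 protein-coding genes with a position. Regions were taken from the authors' deposited table wherever they overlapped a gene body or the 20 kb on either side of it (GRCm38, mm10). This gave 392 of 484555 listed regions. Methylation had been measured by whole-genome bisulfite sequencing in cells sorted from mice at postnatal day 4.5, with 2 libraries from wild type mice (WT) and 2 from Tet2/Tet3 double knockout mice carrying Krt14-Cre (DKO). Krt14-Cre acts in cells that express keratin 14 and in their descendants, so that the deletion is not limited to the matrix. The labels give no strain, sex, floxed allele or Cre status of the WT, and nothing in them tells if a group's 2 libraries stem from different animals.

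Adult follicle stem cells lie in the bulge and in the upper follicle, and divide rarely between growth phases. The hair matrix is the dividing compartment at the base of the growing follicle, which descends from follicle progenitors and makes the hair shaft and inner root sheath. TET enzymes oxidise 5-methylcytosine, a step towards unmethylated cytosine, and are known to act at enhancers. Bisulfite sequencing does not separate 5-methylcytosine from 5-hydroxymethylcytosine, and a level below is the sum of both.

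Each level is the authors' group mean for a region, as a percentage, and each difference is DKO minus WT in percentage points. No value per library was used, the depth is unknown, and therefore no difference has a replicate check or a test. The spread estimate quoted beside a region is the authors' own, in points, and neighbouring regions can share it. The table appears to list only regions past bounds on the authors' statistic, which is a reading of its values. A stretch with no listed region has no known level. The bounds appear to differ by sign. At Lgr5, listed regions of 1 position had positive statistics from 1.89 upwards, but negative ones only at -4.03 or beyond. A share of listed regions is therefore not a share of all sequence, nor of a list drawn evenly for both directions. The groups carry numbers only in the header. WT is read as group 1 because the title puts that genotype first, and all directions depend on this reading. In sorted cells a change in some cells and a partial change in all cells cannot be told apart.

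Methylation was higher in the DKO at regions in and around 8 of the 9 genes, and Cd34 was the exception. A region is called gained here when its DKO level was at least 20 points above its WT level. Of the 392 regions, 135 were gained (34.4%), against 22.9% of all listed regions. Of the 392, 308 (78.6%) were higher in the DKO by any amount, against 48.2% of all listed regions. The sign of the authors' statistic did not always follow these differences. It was negative in 136 regions, 134 of them gained, and positive in 256, of which 84 were lower and 172 were higher in the DKO, 154 of these by under 10 points. Only 3 regions were at least 10 points lower (0.765%), against 2.54% of all listed regions. A gained region lay in the windows of 8 of 9 genes (88.9%), against 75.1% of protein-coding genes with the same window, so that the presence of one is common. Windows with a region at least 10 points lower were 2 of 9 (22.2%), against 14.4% of protein-coding genes.

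The 135 gained regions were of intermediate methylation in the WT and mostly methylated in the DKO. Their median level was 38.2% for WT (quartiles 28.0 and 47.2) and 74.3% for DKO (quartiles 65.8 and 82.5). The 111028 gained regions of the whole table had medians of 45.6% and 76.3%. The difference was at least 40 points in 36 of the 135 (26.7%), against 10.7% of all gained regions. These 36 were unevenly spread over the genes. More of them lay at Lgr6, where gained regions had a median difference of 40.8 points, than at any other gene. None lay at Sox9, where the largest difference was 39.1 points. The WT level was under 20% in 19 of the 135 (14.1%), against 4.02% of all gained regions. Most of these 19 were at Lrig1 and Lhx2, and none at Lgr6, where the lowest WT level of a gained region was 22.3%. Of the 135, 80 overlapped one of the 9 gene bodies and 55 lay in the flanks. Of all 392 listed regions, 243 overlapped a gene body, which is a similar share. Another gene was overlapped by 20 of the 135 gained regions, and the same share over all listed regions was not counted. The classes in the plot of DKO against WT level are set by bounds on these same levels. Beside the gained regions, 197 were high in both, 13 low in both and 3 lost, and 44 (11.2%) were in none of these classes, with differences from -9.07 to 19.7 points. The threshold for a gain lay in no gap between the values. Just inside it were 2 regions of Sox9 at 20.1 and 20.2 points, and just outside it were regions of Nfatc1 at 19.7 and Lrig1 at 19.0 points.

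**Figure D1:**
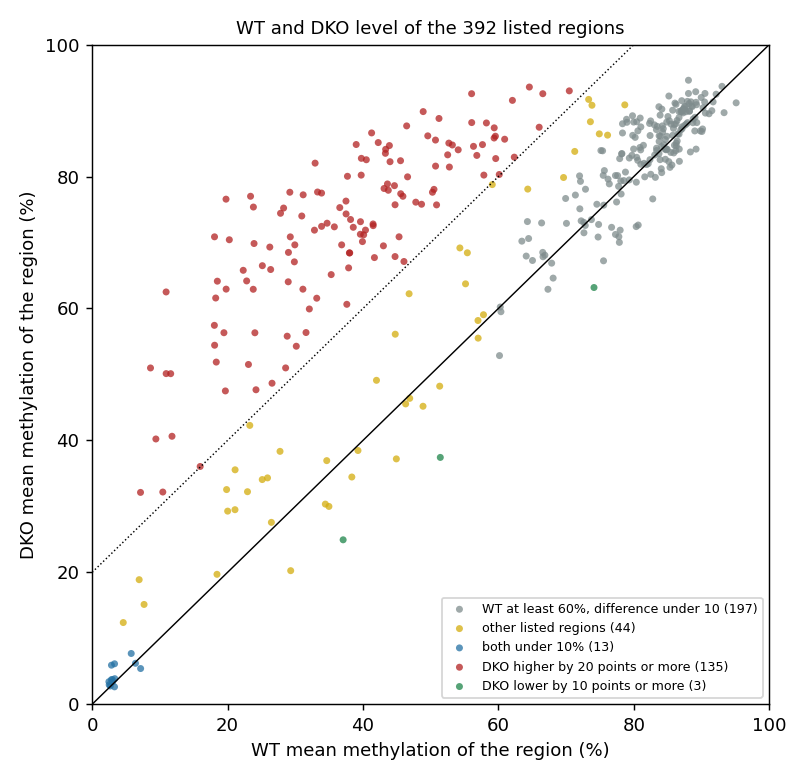
DKO mean methylation against WT mean methylation (both in %) of the 392 listed regions, 1 point per region, coloured by class. The solid line marks equal levels and the dotted line a DKO level 20 points higher. The 135 gained regions lie above the dotted line, 197 regions were at least 60% in the WT and differed by under 10 points, and 13 were under 10% in both.

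The bodies and flanks of the genes differed in how much of them had gained. Gained regions covered 17.8% of the Hopx window, 10.2% of Lgr6, 9.34% of Lgr5, 6.30% of Lrig1, 5.84% of Sox9, 5.31% of Nfatc1, 4.58% of Lhx2 and 3.51% of Foxc1. They covered none of the Cd34 window. Over all protein-coding genes the median was 1.76% and the highest value 24.2%. Hopx stood at rank 6 of 21883 genes, Lgr6 at 381 and Lgr5 at 563. The 9 genes had a median of 5.84% and a median length of 30467 bp, against 17170 bp for all protein-coding genes. The plot of levels along the genes shows where these regions lie.

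**Figure D2:**
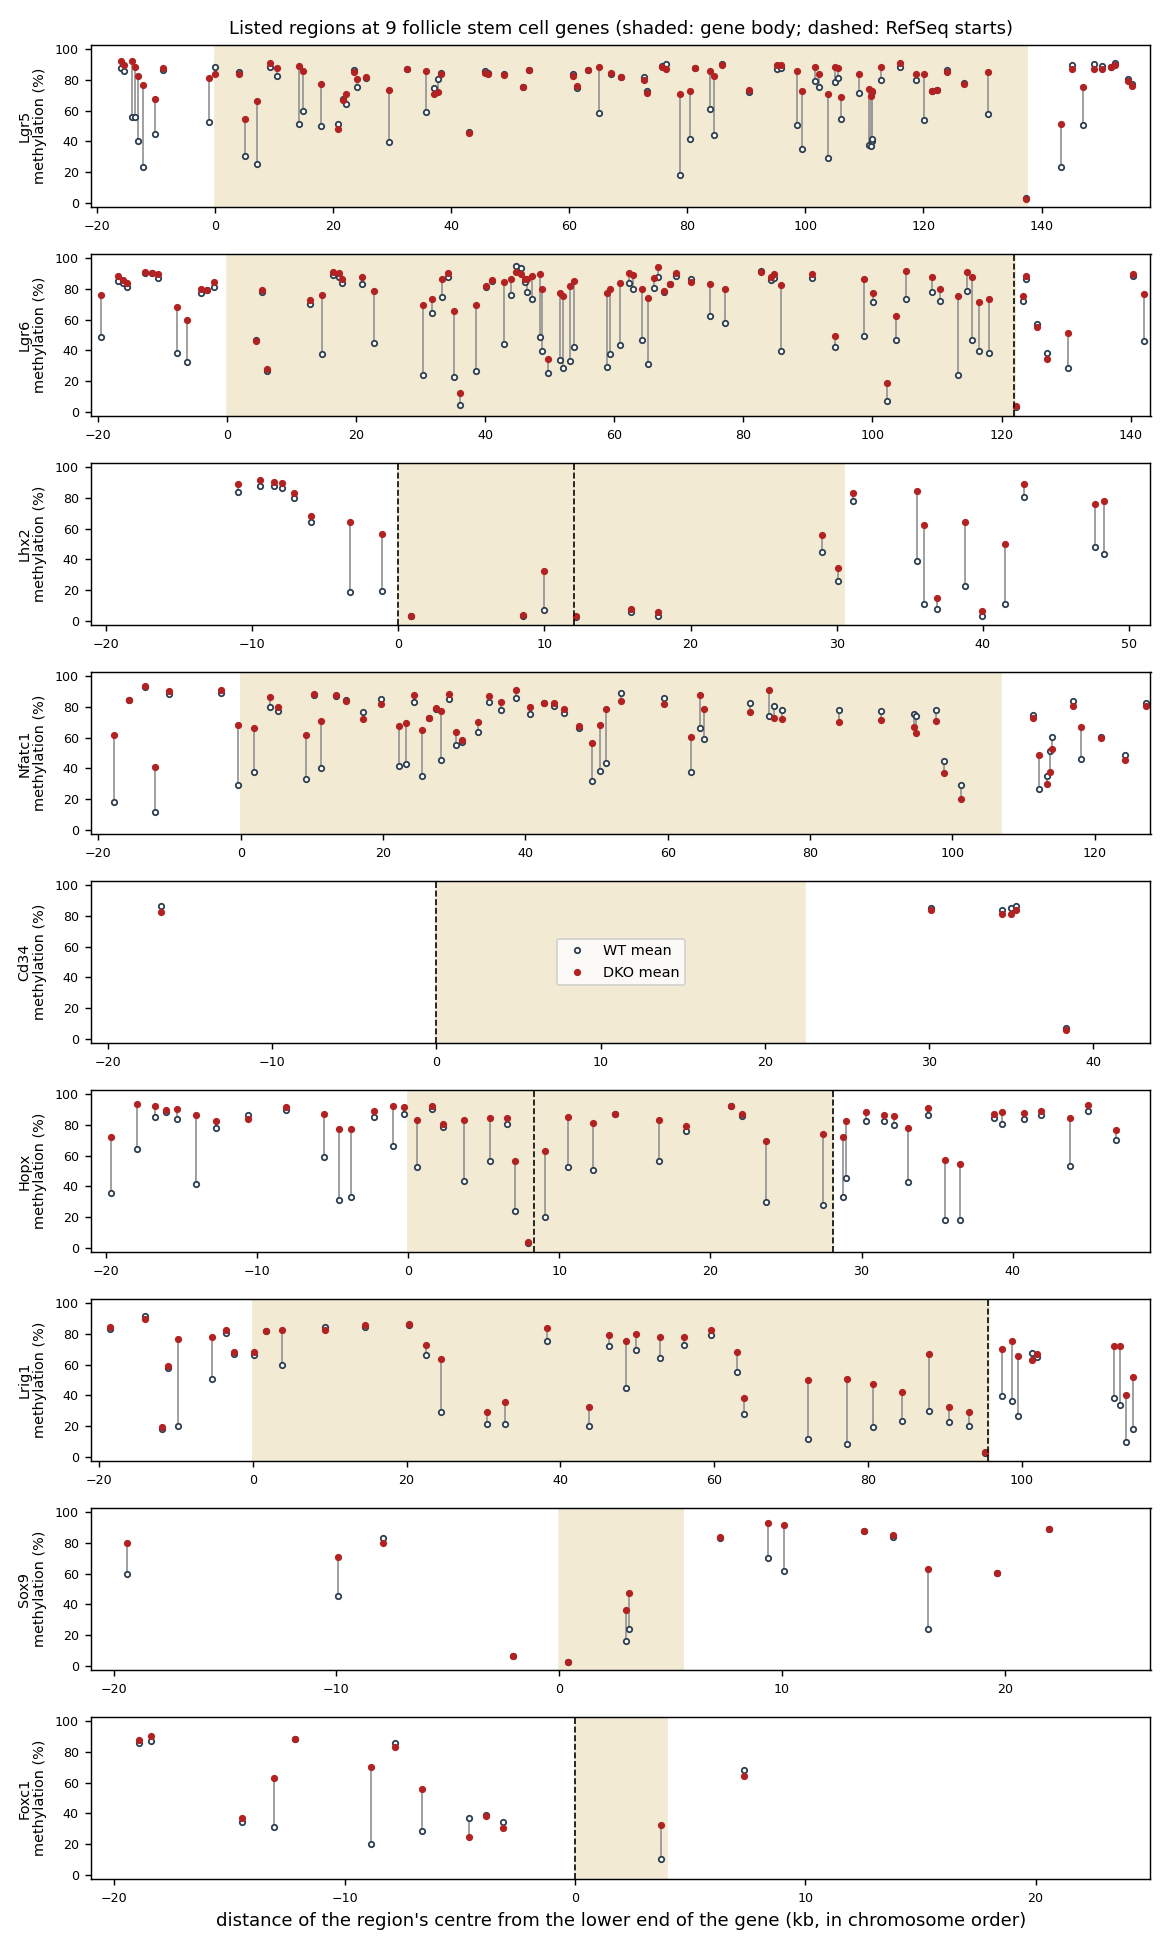
Mean methylation (%) of every listed region at the 9 genes, with the WT as open circles and the DKO as filled circles joined by a line, against the distance of the region's centre from the lower end of the gene (kb, in chromosome order). Shading marks the gene body and dashed lines the RefSeq starts. Long lines mark gained regions, which are dense across Hopx and Lgr6 and missing at Cd34, where all 6 regions differ by under 5 points.

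Of 8 RefSeq starts at the 9 genes, 5 lay in listed regions of very low methylation in both genotypes and 3 had no listed region. RefSeq entries for the start (GRCm38.p6) matched 6 of the 9 genes, with 2 starts each for Lhx2 and Hopx. Those of Lgr5, Nfatc1 and Sox9 had no entry. The 250 bases before a start are shown 5′ to 3′ on the gene's strand, with every CpG in capitals, for 3 starts in a listed low region (Lrig1, Lgr6 and the inner Hopx start) and for all 3 with no listed region.
Lrig1, chr6:94700146-94700395, minus strand: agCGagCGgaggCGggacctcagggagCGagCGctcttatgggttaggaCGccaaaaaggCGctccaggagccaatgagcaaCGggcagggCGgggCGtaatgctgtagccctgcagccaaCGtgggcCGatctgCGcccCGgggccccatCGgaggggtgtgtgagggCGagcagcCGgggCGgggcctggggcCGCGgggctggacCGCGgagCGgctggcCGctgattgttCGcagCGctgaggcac
Lgr6, chr1:135105277-135105526, minus strand: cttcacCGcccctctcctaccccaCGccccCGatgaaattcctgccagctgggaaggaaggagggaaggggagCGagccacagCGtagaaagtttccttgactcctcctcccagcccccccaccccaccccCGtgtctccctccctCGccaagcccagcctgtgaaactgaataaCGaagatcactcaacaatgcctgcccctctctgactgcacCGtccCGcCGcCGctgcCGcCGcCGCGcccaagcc
Hopx, inner start, chr5:77095268-77095517, minus strand: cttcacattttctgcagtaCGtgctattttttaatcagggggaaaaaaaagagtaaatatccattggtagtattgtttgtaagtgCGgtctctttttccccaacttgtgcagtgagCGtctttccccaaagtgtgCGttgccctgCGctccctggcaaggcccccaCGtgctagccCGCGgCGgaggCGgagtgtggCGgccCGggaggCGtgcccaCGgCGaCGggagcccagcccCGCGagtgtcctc
Hopx, outer start, chr5:77115124-77115373, minus strand: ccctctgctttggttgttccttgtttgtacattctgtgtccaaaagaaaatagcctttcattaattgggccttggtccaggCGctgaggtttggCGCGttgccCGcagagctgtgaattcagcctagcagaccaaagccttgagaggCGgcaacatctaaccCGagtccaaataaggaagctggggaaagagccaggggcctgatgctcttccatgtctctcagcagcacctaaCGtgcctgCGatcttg
Cd34, chr1:194938571-194938820, plus strand: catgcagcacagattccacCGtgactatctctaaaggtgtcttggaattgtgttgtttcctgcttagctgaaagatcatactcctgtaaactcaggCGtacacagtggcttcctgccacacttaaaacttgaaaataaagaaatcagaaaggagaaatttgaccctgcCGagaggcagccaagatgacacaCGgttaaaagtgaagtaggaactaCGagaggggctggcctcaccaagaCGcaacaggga
Foxc1, chr13:31806396-31806645, plus strand: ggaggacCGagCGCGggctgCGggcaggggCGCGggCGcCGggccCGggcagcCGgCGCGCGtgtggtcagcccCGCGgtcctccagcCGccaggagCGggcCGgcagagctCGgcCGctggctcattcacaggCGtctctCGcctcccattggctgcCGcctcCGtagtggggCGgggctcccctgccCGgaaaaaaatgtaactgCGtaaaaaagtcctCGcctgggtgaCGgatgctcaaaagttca
The motif CG was counted, which reads the same on both strands. The stretch held 26 CpGs at Lrig1, 16 at Lgr6, 18 at the inner and 8 at the outer Hopx start, 6 at Cd34 and 29 at Foxc1. Over 32851 RefSeq starts the median was 6. As many or more were held by 9.59% of all starts for Lrig1, 25.4% for Lgr6, 21.7% and 43.0% for the inner and outer Hopx start, 50.4% for Cd34 and 6.78% for Foxc1. The starts with no listed region thus include the one with the most CpGs, and those with the fewest.

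The regions across the other 5 starts were low with and without Tet2 and Tet3. At Lrig1 a region of 361 cytosine positions, which count the strands of a CpG mostly apart, was at 2.51% in WT cells and 2.94% in DKO cells. That of Lgr6, with 149 positions, was at 3.34% and 3.87%. The inner Hopx start lay in a region of 128 positions at 2.84% and 3.72%. Both Lhx2 starts, with 25 and 24 CpGs in 250 bases, lay in such regions, at 3.03% and 3.40% and at 2.47% and 3.42%. None of these 5 regions differed by 1 point or more.

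At Sox9, a region of 260 positions across the lower gene end was at 2.68% and 2.77%. At Lgr5, a region of 140 positions across the upper gene end was at 3.30% and 2.64%. No listed region overlapped the 250 bases before the starts of Foxc1, Cd34 or the outer Hopx start, and their levels are therefore not known. In all, 13 regions were under 10% in both genotypes, and their positions lay closer together (median 9.38 bp per position) than in gained regions (27.2 bp). The spacing plot shows an overlap, since 10 of the 88 gained regions of at least 10 positions had under 15 bp per position, as did 10 of the 13 low ones.

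**Figure D3:**
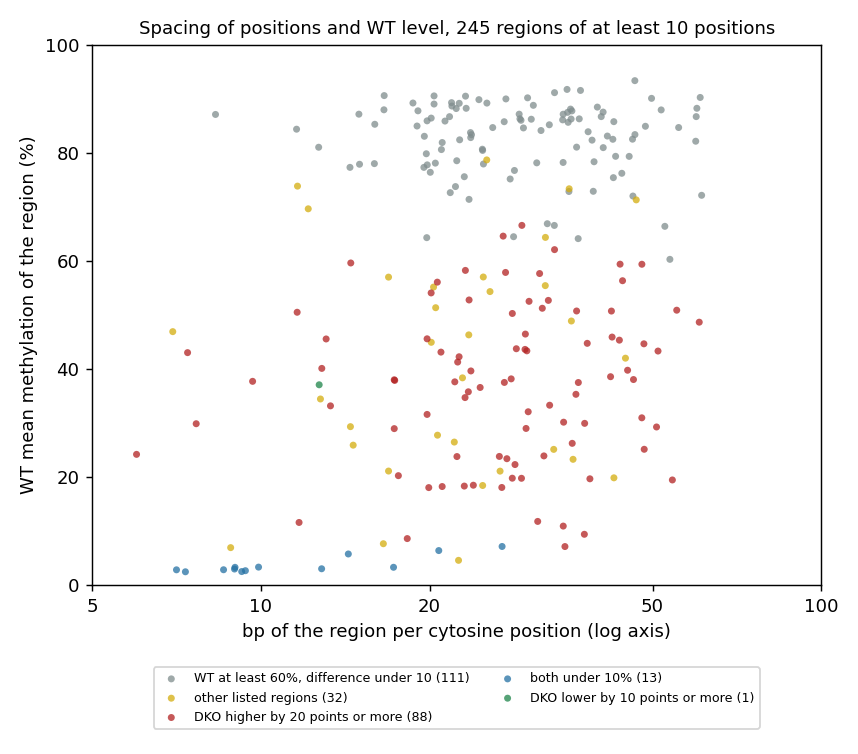
WT mean methylation (%) against the width of a region per cytosine position (bp, log axis), for the 245 regions of at least 10 positions, coloured by class. Low regions (13) sit mostly at the left below 10%, while gained regions (88) spread from low to intermediate WT levels at wider spacing.

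Lgr5 and Lgr6 encode receptors for R-spondins, secreted proteins that amplify Wnt signalling. Lgr5 marks cycling cells of the lower bulge, hair germ and outer root sheath, and Lgr6 marks cells of the isthmus above the bulge. Together they held 59 of the 135 gained regions, and many of the listed ones. Of their listed regions, 33.3% (Lgr5) and 34.9% (Lgr6) were gained, near the 34.4% of all 392. The Lgr5 window (gene on chromosome 10, 115450314 to 115587780) had 87 listed regions, of which 29 were gained and 53 were high in both. Gained regions there had a median of 44.0% in WT cells and 77.0% in DKO cells, with differences of 23.1 to 53.6 points and spread estimates of 3.32 to 4.57.

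The largest gain at Lgr5 lay outside the gene. At 115437642 to 115438493, 11821 bp below the gene, a region of 31 positions was at 23.4% in WT cells and 77.0% in DKO cells (spread estimate 3.32). It belonged to a run of 5 gained regions with no other listed region between them, over 4399 bp. Inside the gene, at 115527952 to 115530212, a region of 84 positions was at 18.1% and 70.9% (spread estimate 3.88). This 2261 bp region has the most positions of the gained regions at the 9 genes. Other intragenic regions were at 29.3% and 70.9% (115553792 to 115554401), 25.1% and 66.5% (115456419 to 115458206), and 34.7% and 72.9% (115549541 to 115550026). The gained region nearest to the lower gene end lay 697 bp outside it, at 52.8% and 81.4%. The one nearest to the upper end, where the low region lies, was 5713 bp outside the gene at 23.1% and 51.5%. The lowest difference in the window was a region of 2 positions, 7.94 points lower in the DKO.

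At Lgr6 gained regions were spread along the gene. Its window (gene on chromosome 1, 134983300 to 135105374, minus strand) had 86 listed regions, of which 79 were higher in the DKO and 30 were gained, 25 of them in the gene. Their median was 38.9% in WT cells and 77.6% in DKO cells, and their median difference of 40.8 points was the largest of the 9 genes. The region that gained most, 8041 bp inside the start at 135095957 to 135097235, was at 23.8% and 75.4% over 48 positions (spread estimate 3.54). Further inside, regions at 135013124 to 135014339 (23.9% and 69.8%), 135018342 to 135018682 (22.3% and 65.8%) and 135021150 to 135022515 (26.2% and 69.3%) differed by similar amounts. A region at 135048079 to 135049035 was at 31.0% and 74.0%. Between 135034865 and 135044385 lay 7 consecutive listed regions that were all gained, by 40.8 to 49.1 points. This run has the most regions of any at the 9 genes, over 9521 bp, while the longest in bases, at Sox9, had 2 regions over 10176 bp. Both spans include sequence between the listed regions, whose level is not known. Nearest to the start, 2864 bp inside, a region of 77 positions was at 38.2% and 73.5%. No region was more than 3.94 points lower in the DKO.

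Other genes of R-spondin signalling differed in the same measure. The paralogue Lgr4 had 37 gained regions covering 10.6% of its window, with one inside the gene at 21.9% in WT cells and 77.3% in DKO cells. Rnf43 and Znrf3, membrane ligases that remove Wnt receptors and are cleared by R-spondin binding, had 22 and 31 gained regions (9.73% and 3.19% of the window). Axin2, a Wnt target and feedback inhibitor, had 13 (10.1%). Of the ligands, Rspo1 had 4 gained regions (6.32%), while Rspo2, Rspo3 and Rspo4 had none. Their windows held 21, 14 and 11 listed regions, and that of Rspo2 had 3 regions lower by at least 10 points. The 8 genes had a median coverage of 4.75%.

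Hopx and Lrig1 encode regulators rather than receptors of a stem cell signal. Hopx is an atypical homeodomain protein without DNA binding of its own, found in bulge cells, and Lrig1 is a transmembrane inhibitor of EGF receptor signalling that marks the junctional zone. The Hopx window (gene on chromosome 5, 77086986 to 77115123, minus strand) had 49 listed regions, of which 48 were higher in the DKO and 23 were gained. Gained regions had a median of 43.1% in WT cells and 81.6% in DKO cells. They were spread over the gene (10) and its flanks (13), and those in the flanks include regions over the lncRNA gene Gm15831 before the outer start.

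The gained region nearest to a Hopx start bordered the low region. It lay 360 bp before the inner start, at 77095627 to 77096469, with 19.8% in WT cells and 62.9% in DKO cells over 30 positions (spread estimate 4.49). The outer start, with fewer CpGs in the sequence shown above, had gained regions on both sides. A region 637 bp inside it was at 27.8% and 74.4%, and regions 609 and 741 bp before it were at 32.8% and 71.9% and at 45.5% and 82.4%. These belong to 4 consecutive gained regions over 5906 bp, the first of which (77110128 to 77111262) was at 29.9% and 69.6%. Of the 82 gained regions at the 6 genes with a RefSeq start, 5 lay within 1 kb of one, 4 at Hopx and 1 at Lhx2. Each of these genes has 2 starts, and Lgr5, Nfatc1 and Sox9, with no entry, could not count. The same share over all gained regions was not counted. Beyond the gene's lower end, a region of 62 positions at 77072239 to 77073630 was at 41.3% and 86.6%, a difference of 45.3 points. Others lay at 77082848 to 77083535 (33.3% and 77.7%) and inside the gene at 77090296 to 77091011 (43.3% and 83.5%). No region was more than 2.28 points lower in the DKO.

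The Lrig1 window (gene on chromosome 6, 94604529 to 94700298, minus strand) held the largest gain of the set, but inside a neighbouring gene. At 94594097 to 94595380, 9149 bp beyond the end of Lrig1 and within Slc25a26, a region of 44 positions was at 19.8% in WT cells and 76.6% in DKO cells (56.8 points, spread estimate 4.12). The DKO level was the higher one in 41 of 45 listed regions, and 16 were gained, 7 in the gene and 9 in the flanks. In the 25 kb inside the start, all 7 listed regions beyond the low one were higher in the DKO, by 9.27 to 42.4 points. Their WT levels were low, from 8.62% to 29.9%. Among them were regions at 94681587 to 94682024 (8.62% and 51.0%), 94676708 to 94676824 (11.6% and 50.1%) and 94692458 to 94692549 (29.9% and 67.1%). Before the start, a region 2969 bp away at 94703114 to 94703507 was at 36.6% and 75.3%, and the nearest one, 1774 bp away, was at 39.9% and 70.1%. No region was more than 4.41 points lower in the DKO.

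Lhx2, Sox9, Nfatc1 and Foxc1 are transcription factors. Lhx2, a LIM homeodomain factor, maintains bulge cells. Its gene (chromosome 2, 38339271 to 38369737, plus strand) was low in both genotypes at 5 of its 8 listed regions, and most gains lay beside it. Of 26 listed regions, all were higher in the DKO, 9 were gained and 6 were low in both. The 6 low ones differed by only 0.367 to 3.07 points, less than their spread estimates (3.43 to 4.67). Most of those high in both also differed by less than their spread estimate. Inside the gene 1 of 8 regions was gained, between low regions at 38348906 to 38349533, from 7.14% to 32.1%. It overlapped the lncRNA gene Gm27197. Before the outer start, regions 700 and 3091 bp away were at 19.5% and 56.3% (38337714 to 38338581) and at 18.5% and 64.1% (38335760 to 38336190). Both overlapped the lncRNA gene Gm46736. In the flank beyond the gene, 6 of 10 regions were gained, among them those at 38380490 to 38381078 (10.9% and 50.1%) and 38387383 to 38387782 (43.7% and 77.9%). The median WT level of the gained regions, 19.5%, was the lowest of the 8 genes.

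Sox9 specifies follicle stem cells in the embryo and stays on in the outer root sheath. Its short gene (chromosome 11, 112782210 to 112787757) had 2 gained regions near each other within the gene, at 16.0% in WT cells and 36.0% in DKO cells (3 positions) and at 24.2% and 47.7% (112785278 to 112785433, 26 positions). The other 5 of its 7 gained regions, of 15 listed, lay in the flanks. The largest gain, 10724 bp above the gene at 112798481 to 112799062, was at 23.8% and 62.9% (spread estimate 4.89). It overlapped the lncRNA gene Gm11681. Regions at 112792065 to 112792532 (62.1% and 91.5%) and 112771616 to 112772924 (45.3% and 70.9%) differed less. No region was more than 3.31 points lower in the DKO. The median difference of the gained regions, 23.5 points, was the smallest of the 8 genes.

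Nfatc1, a calcium-regulated factor that holds bulge cells in quiescence, was higher in the DKO at 42 of its 65 listed regions and lower at the others. Such a mix was not particular to Nfatc1. The DKO level was the higher one in 54 of 87 listed regions at Lgr5, 11 of 15 at Sox9 and 7 of 13 at Foxc1. The Nfatc1 gene (chromosome 18, 80606205 to 80713071) had 17 gained regions of 65 listed. In the gene up to its last gained region, the DKO level was the higher one in 32 of 37 listed regions, and 13 were gained. Above that point 10 of 12 were lower, by 6.07 to 10.9 points, and the other 2 were higher by more than that, 19.7 points over 2 positions and 17.0 points over 24. The dividing point is the last region past the 20-point threshold, so it was set by the values, and the count of gains on either side follows from it. The largest gain lay 17409 bp below the gene, at 80587849 to 80588796, with 18.2% in WT cells and 61.6% in DKO cells (spread estimate 4.75). A region across the lower gene end, at 80605220 to 80606349, was at 29.0% and 68.5% (spread estimate 3.38). This region and the largest gain overlapped the lncRNA gene Gm41790. Inside the gene, regions were at 43.6% and 78.9% (80657229 to 80657761), 45.6% and 77.4% (80634139 to 80634534), and 40.1% and 71.2% (80617208 to 80617875).

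The lower values at Nfatc1 rested on few positions where they were largest. A region of 2 positions 6830 bp above the gene was at 51.4% in WT cells and 37.4% in DKO cells, and one of 5 positions inside the gene was at 74.1% and 63.2%. Between the first of these and the gene lay a gained region of 2 positions at 26.6% and 48.7%. A region of 60 positions near the upper end, at 29.3% and 20.2%, was 9.07 points lower.

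Foxc1, a forkhead factor of bulge quiescence, had a gain and a loss close together before its start. Its gene (chromosome 13, 31806646 to 31810635, plus strand) had 13 listed regions, 4 of them gained. The largest gain, 8321 bp before the start at 31797235 to 31798325, was at 20.3% in WT cells and 70.4% in DKO cells over 62 positions (50.2 points, spread estimate 4.38). Regions 12949 and 6505 bp before the start were at 31.1% and 62.9% and at 28.8% and 55.8%. In the 5 kb before the start all 3 listed regions were lower in the DKO. The largest of them, at 31801652 to 31802477 with 65 positions, was at 37.1% and 24.9% (12.1 points lower, spread estimate 3.50). It is the only region of at least 10 positions that was at least 10 points lower at the 9 genes. The others in these 5 kb differed little, at 39.3% and 38.5% (spread estimate 3.62) and at 34.4% and 30.3% (spread estimate 3.87). Inside the gene, 1 position was at 10.4% and 32.2%.

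Cd34, a surface glycoprotein by which adult bulge cells are sorted and which is also found on endothelial and blood progenitor cells, held no gained region. Its window (gene on chromosome 1, 194938821 to 194961292, plus strand) had 6 listed regions, the fewest of the 9 genes, none of them in the gene. All 6 were lower in the DKO, by 1.74 to 4.42 points, with spread estimates of 3.52 to 4.98 points. The largest difference, 16644 bp before the start, was at 86.7% and 82.3% over 3 positions. Only this difference exceeded its spread estimate (3.71). A region of 19 positions beyond the gene was at 7.16% and 5.41%, and the others were above 80% in both genotypes. All regions beyond the gene overlapped the lncRNA gene Gm16897. In total, 5452 of 21883 protein-coding genes held no gained region in this window.

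Among 42 other genes of follicle stem cells and their surroundings, 39 had a gained region (92.9%), against 75.1% of protein-coding genes, and the median coverage was 6.30%. Coverage was above the all-gene median in 37 of the 42 and in 8 of the 9. The highest values were those of Vdr, the vitamin D receptor (17.4%), Krt15, a keratin of bulge cells (15.5%), and Klf5, an epithelial zinc finger factor (14.4%). The lowest were those of Rspo2, Rspo3 and Rspo4. The transcription factors of this list (17) had a median of 7.02%. Hair matrix markers (7) had a median of 4.29%. The medians were 2.47% for 8 fibroblast and dermal papilla markers, 1.92% for 7 melanocyte markers, 2.19% for 7 immune markers and 2.13% for 8 endothelial and muscle markers. The ranges overlapped. Hair matrix markers ran from 0 to 12.9%, and the highest values of the other marker lists were 5.71%, 9.02%, 4.28% and 9.93%, in the order given. Shh is in both the list of 42 and the hair matrix list. None of the differences between lists was tested. Methylation at marker genes does not count cells, and the makeup of the sort was not tested.

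**Figure D4:**
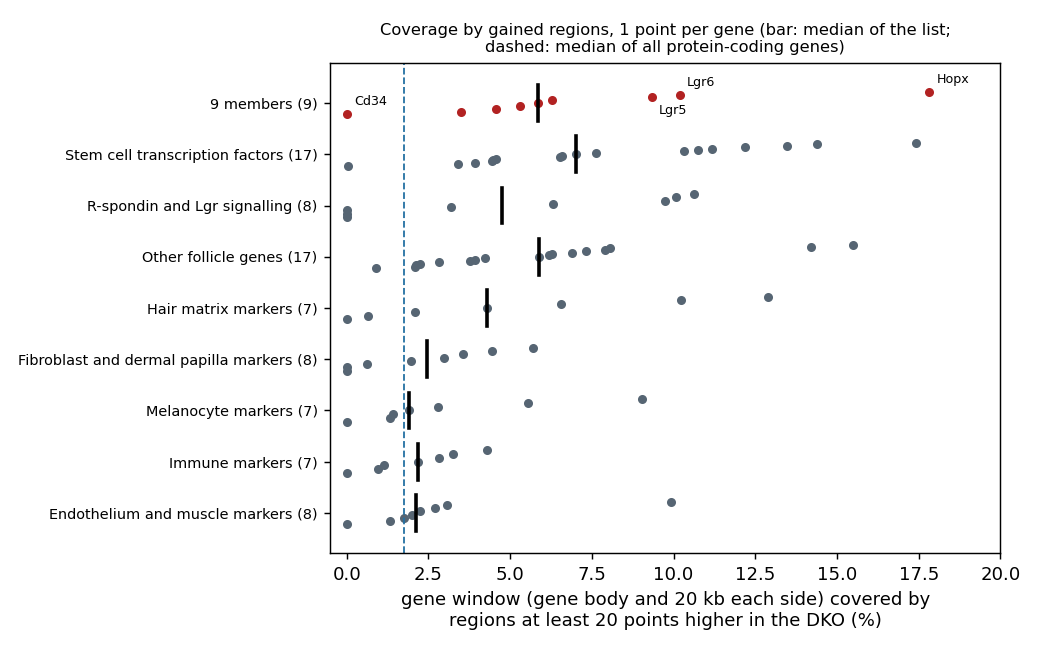
Percent of each gene window (gene body and 20 kb on either side) covered by gained regions (a DKO level at least 20 points above the WT), 1 point per gene, for the 9 genes and the comparison lists. Bars are list medians and the dashed line is the median of all protein-coding genes (1.76%). Hopx (17.8%) lies far to the right of the other 8 genes, and Cd34 at 0.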

How the data were processed

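The submitters' processing notes name Trim Galore (read trimming), Bismark (bisulfite alignment) and the build GRCm38 (mm10). For the region caller, smoothing and bounds, nothing was given in the sources used here. The deposited table gives a mean methylation level per region and group as a fraction, converted here to percentages, and, per the file headers, a statistic and a spread estimate, treated as a score. It has no p-value, read count or value per library, so the planned tests on libraries, coverage minima and p-value thresholds were not run, and no interval of a level can be given. The 2 samples of a group enter only as the authors' mean.

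Gene positions and starts came from RefSeq tables of the same assembly, and exons were not used here. Regions were counted when they overlapped a gene body with 20 kb on either side. Gained means at least 20 points higher in the DKO, lost at least 10 points lower. Overlap counting was tested on simulated data. Genes and lists were chosen with earlier results of these data known. All members were named, and regions were named by rule: the 5 largest gains of at least 10 positions, the gain nearest to a start or gene end, and the largest loss, or all gains where there were 6 or fewer, plus regions over a RefSeq start. Of the comparison list, the 3 highest, the 3 lowest and the R-spondin group were named. Other regions were chosen after their values were seen. Scripts ran in Python 3.11.15 with pandas 2.3.3, numpy 2.4.6 and matplotlib 3.10.9.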

Additional observations from a re-analysis of the deposited data

How the results depend on the processing

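The counts over the 9 genes were recomputed with other windows (gene body, 5 kb and 50 kb), other minimum gains (10 and 30 points), regions of at least 10 positions only, and neighbours within 500 bp merged. For the count of lower regions these alternatives were chosen after seeing the data. A gained region was found at 8 of the 9 genes under each of these settings. The 50 kb window, the 10-point minimum and the merging could not have lowered this count. Within gene bodies, Foxc1 counted through 1 region of 1 position, and Lhx2 through 1 region. With gene bodies only, there were 243 listed and 80 gained regions, and 1 region was at least 10 points lower. With 50 kb on either side, 5 regions were at least 10 points lower. At a minimum of 30 points, 89 regions were gained and the median coverage of the windows was 3.69%. With at least 10 positions, there were 245 listed and 88 gained regions, and 1 was at least 10 points lower. The remaining values lay within 1.5 times those reported. No paired analysis was possible because the table holds 1 mean per group and no value per library, and for the same reason leaving out a library was not run. Bisulfite depth at each region limits the precision of a level and is unknown here.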

Other observations

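One gained region at Lrig1 had a statistic of the sign opposite to that of the other gained regions. It lies inside the gene on chromosome 6, 94683859 to 94686448, and held 67 positions at 19.7% in WT cells and 47.5% in DKO cells, with a spread estimate of 6.68 points, the highest of the 135 gained regions. In the authors' deposited table its summed statistic was 172.2, while the other 134 gained regions at the 9 genes had negative values. Of all 111028 gained regions, 188 (0.169%) had a positive statistic. With gained and other regions together, a positive statistic stood beside a higher DKO mean in 172 of the 392 listed regions at the 9 genes (43.9%) and in 22.9% of all listed regions. No region that was lower in the DKO had a negative statistic, in the windows or in the whole table. The cause was not tested.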
